A study of Mus musculus with 12 samples.

Results

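Gene expression was followed through in vitro differentiation in a female mouse embryonic stem cell line labelled RlimKO. The 2 differentiated libraries of this line were set against its 2 undifferentiated libraries, all taken by the genotype and state in their labels, which makes 4 of the 12 libraries of the series. Differentiated cells had formed embryoid bodies for 3 days in bacterial dishes without LIF and were then cultured for 6 days in 7.5% oxygen, and undifferentiated cells were kept in LIF medium. The other libraries came from a female WT line (Pgk12.1) and a male WT line (E14) in the same 2 states, with 2 libraries each, and the strain label was C57BL/6 throughout. The RlimKO genotype was represented by a single line, for which the labels give neither the deleted part of Rlim nor a clone. Whether the 2 replicates of a group were grown as separate cultures is not stated in the labels, and the p-values therefore rest on the spread from library to library, which may be technical.

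LIF holds mouse embryonic stem cells in a naive state run by Oct4 (Pou5f1), Sox2, Nanog and partner factors. Without it, cells in aggregates leave that state and form derivatives of the extraembryonic endoderm and of the 3 germ layers. In female cells this exit is also when Xist RNA coats and silences an X chromosome. RLIM is a ubiquitin ligase encoded on the X chromosome whose known targets include REX1 (Zfp42), a repressor of Xist.

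Values are counts per 1000000 (CPM) of a library after Rn45s, a ribosomal RNA precursor, and Lars2 were taken out. The counts that remained were 1027807 and 2247258 in differentiated replicates 1 and 2, and 836410 and 1170931 in undifferentiated replicates 1 and 2. Rn45s had taken 67.7% and 30.8% of the counts in genes of the differentiated libraries, against 55.8% and 44.0% of those of the undifferentiated ones, and 67.7% was the highest share in the series. The values of the differentiated replicates nevertheless lay close together: of 7632 genes with a mean of at least 20 CPM there, 38 differed more than 2-fold. A gene is said to rise or fall when the adjusted p of edgeR's quasi-likelihood test (Benjamini-Hochberg over 12417 tested genes) was below 0.05, with n = 2 libraries per state. Fold changes are log2 values ± SE, differentiated minus undifferentiated.

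The targeted gene was examined first. Rlim (X: 103957163 to 103981296, mm10) had 538 and 567 CPM in the differentiated libraries labelled RlimKO, against 324 and 302 CPM in the undifferentiated ones (log2 fold change 0.82 ± 0.15, adjusted p = 0.000342). It was thus present in all 4 libraries that carry the label and higher in both differentiated ones. The WT female line had 498 and 509.8 CPM after differentiation and 538 and 557 CPM before it (-0.12 ± 0.14, adjusted p = 0.506), and the difference between the 2 changes did not pass the test (0.94 ± 0.20, adjusted p = 0.076). Counts per gene do not tell which exons the reads came from, so the label could not be checked further, and the line is called RlimKO-labelled throughout.

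Differentiation changed a large share of the genes. In the RlimKO-labelled line 6139 of 12417 tested genes (49.4%) were called, 3040 of them rises (24.5%) and 3099 falls (25.0%), and 6937 had an unadjusted p below 0.05. A change of at least 1 on the log2 scale was present in 2427 of the rises and 2200 of the falls. Of the calls, 3566 were made in each of 12 models that left out a single library of the series. Without differentiated replicate 1, the library of highest Rn45s share, 4835 genes were called, 4686 of them among the 6139. The falls numbered 1827, 2063 and 2042 without differentiated replicate 2, differentiated replicate 1 and undifferentiated replicate 2. The libraries of the 2 states did not overlap for 6133 of the called genes, and for 77.8% of all genes tested. Counts of list members below are to be read against these shares. A list member that passed the filter on low counts only through the state where it is high had to differ, and members that did not pass are counted as not tested.

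The largest rises by the naming rule were genes without a single count in the undifferentiated libraries. The rule ranks fitted changes, whose size is not fixed by the data when a state has 0 counts. Some genes named further below therefore have larger measured changes than the bounds given here and for the falls. Tgfbr3, a coreceptor for TGF-beta and inhibin, had 462 and 462 CPM in the differentiated libraries and 0 in both undifferentiated ones, at least 310.5-fold higher (adjusted p = 1.15e-09), where the floor is 3 counts over the undifferentiated pair. Bnc1, a zinc finger factor of keratinocytes and germ cells, had 237 and 272 CPM against 0 (at least 175-fold higher, adjusted p = 1.18e-06). Fat4, an atypical cadherin of planar polarity, had 168 and 160.5 CPM against 0 (at least 109-fold higher, adjusted p = 0.000187). Decorin (Dcn), a small proteoglycan that binds collagen, had 157 and 134 CPM against 0 (at least 94.9-fold higher, adjusted p = 0.000639). Both differentiated libraries carried each of these genes at like levels. The other 8 were Tmem98, Crispld2, Smoc2, Airn, Vgll3, the prostaglandin synthase gene Ptgs2, the protease gene Pappa and the WNT antagonist gene Dkk2, with bounds between 51.6-fold and 114-fold.

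The largest falls by the same rule included regulators and signals of the undifferentiated state. Nr0b1 (Dax1), an X-linked orphan nuclear receptor of naive stem cells, had 0 CPM in both differentiated libraries, against 115 and 113 CPM in the undifferentiated ones, at least 120.4-fold lower (adjusted p = 5.19e-07). Lefty1, a secreted inhibitor of Nodal, had 0 and 0.462 CPM against 211 and 219 CPM, a ratio of 686-fold (95% counting interval 122 to 27157) (adjusted p = 6.67e-09). Fgf17, a fibroblast growth factor, had 0 against 41.3 and 55.7 CPM (at least 52.6-fold lower, adjusted p = 2.15e-06). Foxd3, a forkhead repressor of pluripotent and neural crest cells, had 0 against 28.3 and 24.8 CPM (at least 27.9-fold lower, adjusted p = 9.56e-05). Both differentiated libraries lacked or nearly lacked these transcripts. The rest were Nefh, Calca, Nlrp4f, D1Pas1, Dpys, Pax8, Serpinb6c and Nkx6-3, all at 0 counts after differentiation, with bounds between 23.1-fold and 71.5-fold.

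**Figure D1:**
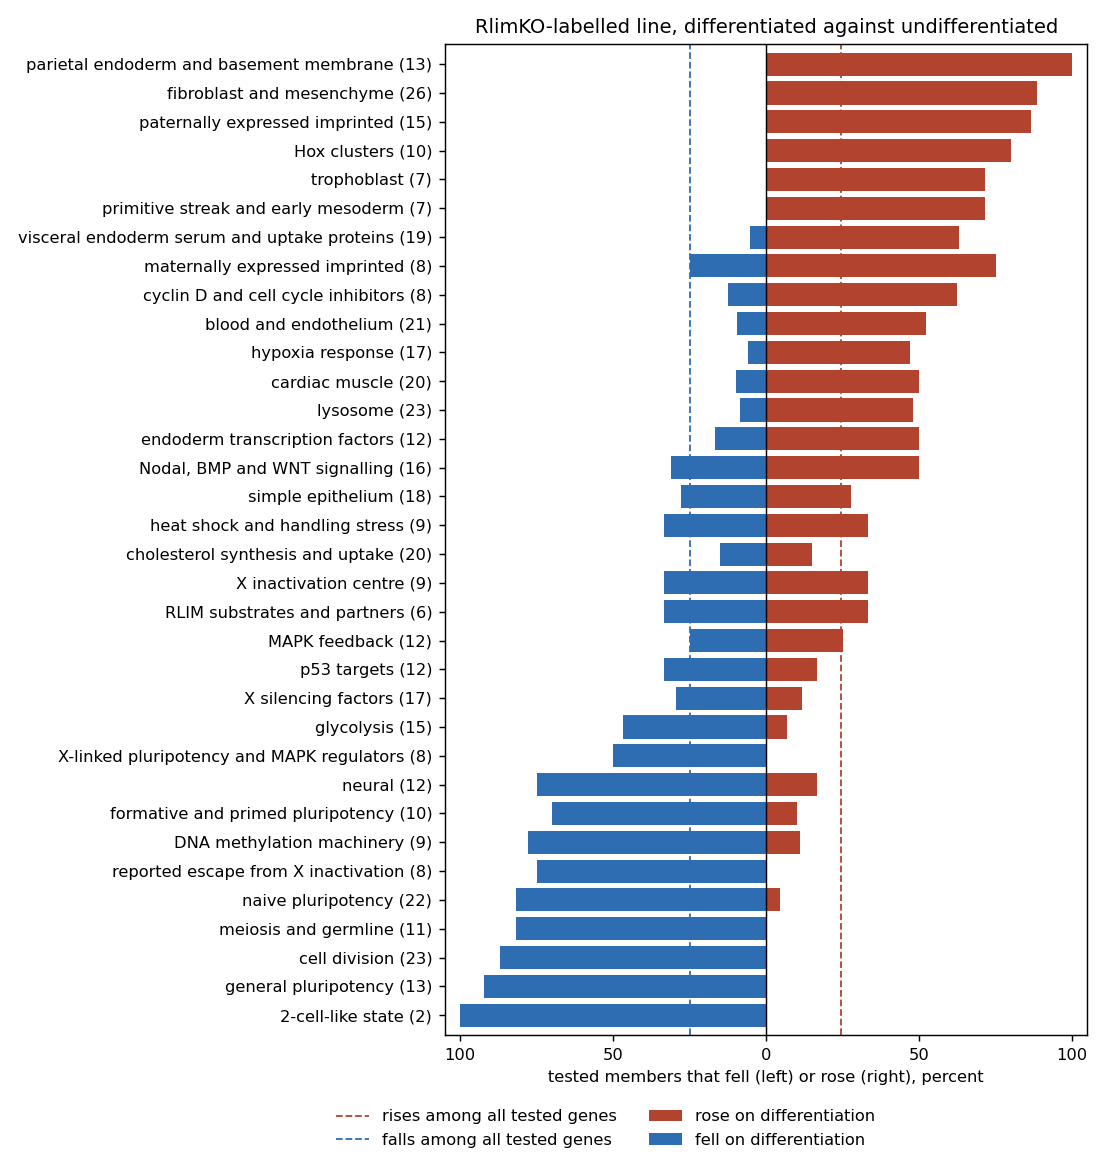
Share of the tested members of each gene list that fell (left, blue) or rose (right, red) in differentiated against undifferentiated libraries of the RlimKO-labelled line, in percent of the members tested (number in brackets); dashed lines mark the shares among all tested genes, 25.0% for falls and 24.5% for rises. Pluripotency, cell division and germline lists lie far to the left and basement membrane, mesenchyme and paternally expressed imprinted lists far to the right.

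Naive pluripotency was lost. Of 22 listed genes of the naive state, all tested, 18 fell and 1 rose, with a median log2 fold change of -4.29 against -0.01 over all tested genes, and their summed level was 577 and 566 CPM in differentiated libraries against 4415 and 4477 CPM in undifferentiated ones. Nanog, a homeodomain factor of the naive network, had 8.87 and 13.9 CPM in the differentiated libraries, against 348 and 381 CPM in the undifferentiated ones (log2 fold change -4.91 ± 0.28, adjusted p = 7.38e-09). Esrrb, an orphan nuclear receptor, had 23.7 and 18.96 CPM against 693 and 585 CPM (-4.94 ± 0.27, adjusted p = 5.08e-09). Zfp42, which encodes the RLIM target REX1, had 21.7 and 19.4 CPM against 579.8 and 608 CPM (-4.87 ± 0.29, adjusted p = 1.15e-08). The differentiated libraries thus kept only a small residue of these transcripts. Fgf4, the growth factor that primes stem cells for exit, had 1.97 and 6.01 CPM against 269 and 266 CPM (-5.83 ± 0.30, adjusted p = 3.29e-09). Tdh, the threonine dehydrogenase on which mouse stem cells rely, had 7.89 and 10.6 CPM against 227 and 245 CPM (-4.60 ± 0.23, adjusted p = 3.29e-09). The rise was that of Lifr, the LIF receptor (248 and 274 CPM against 172 and 216 CPM, 0.43 ± 0.16, adjusted p = 0.0359), a call that was lost when undifferentiated replicate 1 or differentiated replicate 2 was left out. Tbx3 (-0.20 ± 0.22), Socs3 (0.03 ± 0.45) and Dppa3 (-0.68 ± 0.70) were not called (adjusted p = 0.48, 0.967 and 0.442).

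General and formative pluripotency genes fell as well. Of 13 general pluripotency genes 12 fell and none rose (median -3.33), and of 10 tested formative and primed genes 7 fell and 1 rose (median -2.62). Pou5f1, the Oct4 gene, had 16.8 and 20.8 CPM in the differentiated libraries, against 753 and 699 CPM in the undifferentiated ones (log2 fold change -5.23 ± 0.24, adjusted p = 1.37e-09). L1td1, an RNA-binding protein of stem cells, had 14.8 and 19.4 CPM against 857 and 876 CPM (-5.61 ± 0.32, adjusted p = 7.75e-09). Sox2, the partner of Oct4, had 22.7 and 15.7 CPM against 250.3 and 252 CPM (-3.77 ± 0.33, adjusted p = 5.21e-07). Falls were smaller for Rif1, a replication timing factor, which had 313 and 345 CPM against 960.0 and 1094 CPM (-1.64 ± 0.21, adjusted p = 2.10e-05). The zinc finger factor Sall4 had 114 and 113 CPM against 303 and 289.5 CPM (-1.38 ± 0.19, adjusted p = 4.02e-05). Trim71, a regulator of developmental timing, was not called (-0.53 ± 0.33, adjusted p = 0.201). Among formative genes, Dnmt3b, a de novo DNA methyltransferase, had 31.5 and 23.6 CPM against 231 and 207 CPM (-3.03 ± 0.21, adjusted p = 5.77e-08), while its relative Dnmt3a rose (288 and 261 CPM against 151 and 147 CPM, 0.88 ± 0.26, adjusted p = 0.0112). Fgf5 and Sox3, markers of the primed epiblast, were too low to test. The formative rises numbered 2 without differentiated male replicate 1.

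**Figure D2:**
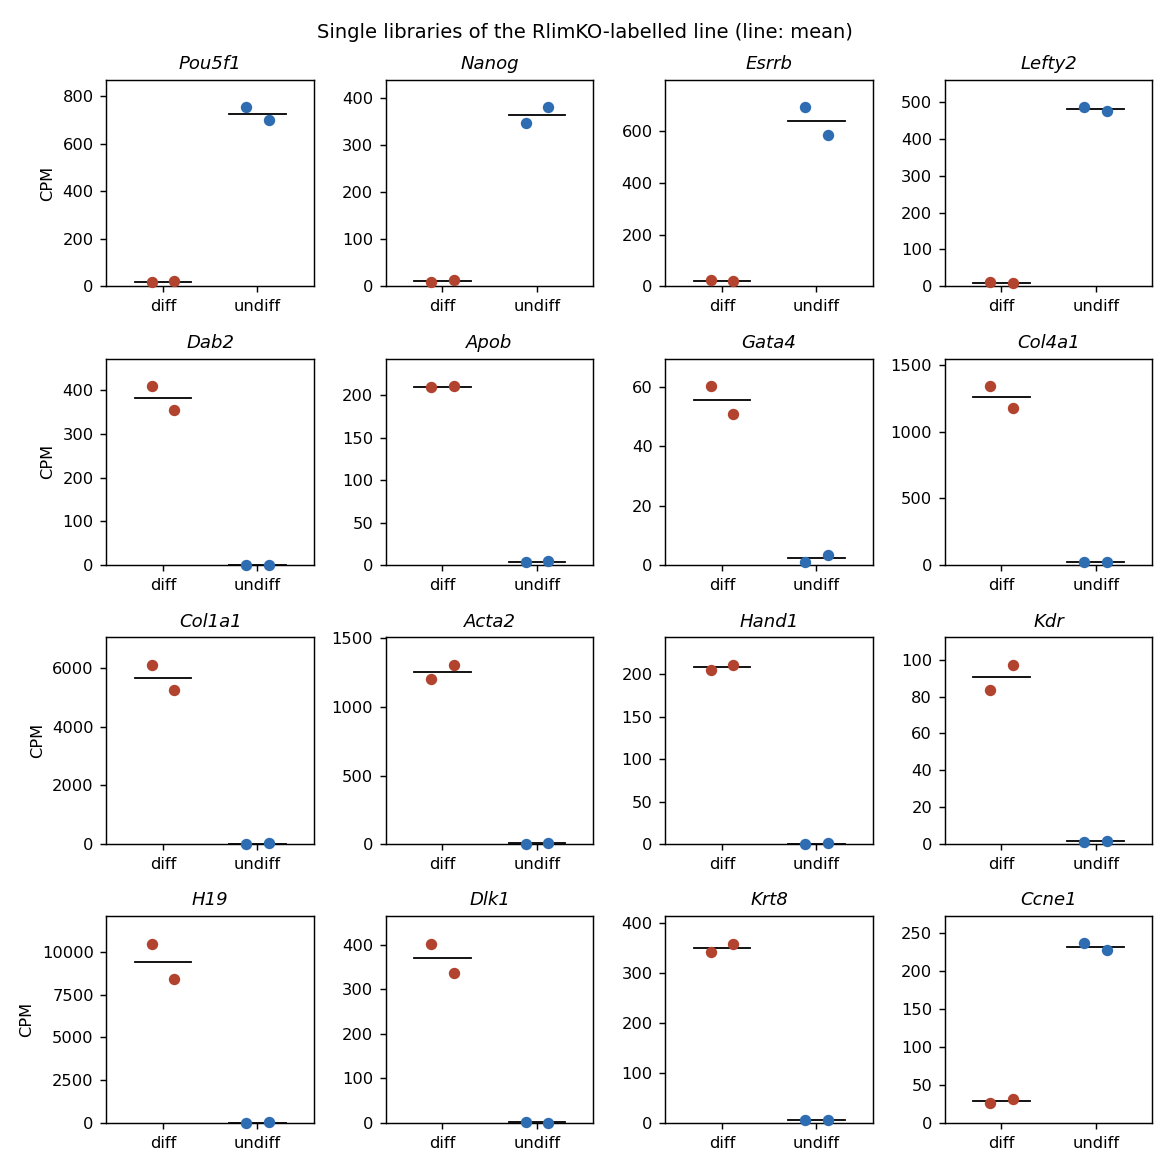
CPM of 16 genes in single libraries of the RlimKO-labelled line, differentiated (left, red) and undifferentiated (right, blue), each panel with its own axis from 0 and a line at the mean of 2 libraries. In every panel the 2 states are apart by far more than the replicates of a state.

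Genes of the yolk sac endoderm appeared in part. Of 21 listed endoderm transcription factors 12 were tested, of which 6 rose and 2 fell, and of 30 visceral endoderm serum and uptake proteins 19 were tested, of which 12 rose and 1 fell. Visceral endoderm is the extraembryonic epithelium that takes up maternal proteins and secretes serum proteins and lipoproteins. Dab2, an endocytic adaptor that acts with megalin, had 408 and 353 CPM in the differentiated libraries, against 0 and 0.857 CPM in the undifferentiated ones, a ratio of 747-fold (95% counting interval 134 to 29529) (adjusted p = 4.80e-10). Apob, the structural apolipoprotein of lipoproteins, had 209 and 210.4 CPM against 3.54 and 5.14 CPM (log2 fold change 5.54 ± 0.28, adjusted p = 3.10e-09). Ttr, the thyroxine carrier transthyretin, had 37.5 and 38.4 CPM against 0 and 0.857 CPM, a ratio of 76.7-fold (95% counting interval 13.5 to 3055) (adjusted p = 3.83e-05). These genes were nearly absent before differentiation and present in both libraries after it. Markers of mesenchyme and mesoderm rose in the same libraries, and the part of each cell type was not tested. Alpha-fetoprotein (Afp) stayed low, with 7.89 and 11.1 CPM against 0 (at least 6.76-fold higher, adjusted p = 0.0064), and Alb, Apoa4, Trf and Amn did not pass the filter. The member that fell was Apoe, which stem cells also express (127 and 129 CPM against 420.4 and 318 CPM, -1.52 ± 0.31, adjusted p = 0.000978).

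Among the factors that specify endoderm, Gata4 had 60.1 and 50.9 CPM in the differentiated libraries, against 1.18 and 3.43 CPM in the undifferentiated ones (log2 fold change 4.44 ± 0.48, adjusted p = 4.06e-06). Gata6, the first factor of primitive endoderm, had 135 and 113 CPM against 1.18 and 5.14 CPM (5.13 ± 0.61, adjusted p = 8.65e-06). Klf6, a zinc finger factor needed in the yolk sac, had 333 and 359 CPM against 94.5 and 95.9 CPM (1.86 ± 0.20, adjusted p = 3.83e-06). The forkhead factor Foxa2 reached 5.91 and 6.94 CPM against 0 (at least 4.44-fold higher, adjusted p = 0.00942), a call that was lost in 1 of the 12 models without a single library (adjusted p up to 0.0551). Hnf4a, the master factor of visceral endoderm secretion, was not called (4.93 and 10.6 CPM against 9.45 and 2.57 CPM, 0.58 ± 0.92, adjusted p = 0.621), nor were Sox17 and Sox7 (adjusted p = 0.0767 and 0.393). The falls included that of Eomes, a T-box factor of early endoderm (adjusted p = 0.0159), and the count of falls was 1 without undifferentiated replicate 2 or differentiated replicate 1.

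The promoters of the members of both lists that rose were read for the letters of 4 motifs, on both strands, in the 250 bases before the annotated start (RefSeq, GRCm38.p6). Of these 18 members 14 had an entry. The motif GTTAAT, found in many liver and yolk sac promoters, stood in 4 of these 14 (28.6%) and in 2023 of 27025 promoters of all genes (7.49%). The GATA motif AGATAA stood in 1 (7.14%, against 11.4% of all genes), the octamer ATTTGCAT in 1 (7.14%, against 1.81%), and the HNF4 motif CAAAGTCCA in none (0.451% of all genes). The plan had been to show 4 called members picked by p, namely Dab2, Apob, Klf6 and S100g. These held 1, 0, 0 and 0 matches to the 4 motifs. The promoters below are instead those that hold GTTAAT, chosen after the search, with motifs in capitals and the strand of the gene 5′ to 3′. In Dab2 (chr15:6386498-6386747, plus strand) this motif begins 65 bases before the start. In Afp (chr5:90490464-90490713, plus strand) it begins 105 bases before the start. In Foxa2 (chr2:148045465-148045714, minus strand) it is read on the opposite strand as ATTAAC, 176 bases before the start, beside AGATAA at 183. In Habp2 (chr19:56287662-56287911, plus strand), the gene of a hyaluronan-binding serum protease, it begins at 66 and the octamer at 59. Dab2 and Foxa2 have 2 and 3 annotated starts, of which 1 each is shown. A match is a description of letters and not evidence of binding.
Dab2: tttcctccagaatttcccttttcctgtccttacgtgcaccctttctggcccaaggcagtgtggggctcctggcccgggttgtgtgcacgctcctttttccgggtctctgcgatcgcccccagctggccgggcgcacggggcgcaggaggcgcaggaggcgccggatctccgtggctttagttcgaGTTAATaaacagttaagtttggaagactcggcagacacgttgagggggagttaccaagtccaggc
Afp: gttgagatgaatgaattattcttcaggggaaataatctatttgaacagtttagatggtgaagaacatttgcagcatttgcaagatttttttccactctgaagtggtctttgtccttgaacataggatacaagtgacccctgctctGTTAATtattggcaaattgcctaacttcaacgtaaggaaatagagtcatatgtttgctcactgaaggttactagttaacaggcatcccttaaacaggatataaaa
Foxa2: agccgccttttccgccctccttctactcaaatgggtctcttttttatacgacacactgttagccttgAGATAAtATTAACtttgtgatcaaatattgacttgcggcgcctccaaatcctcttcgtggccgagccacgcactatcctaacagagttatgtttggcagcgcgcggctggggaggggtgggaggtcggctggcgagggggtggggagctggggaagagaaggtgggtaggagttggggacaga
Habp2: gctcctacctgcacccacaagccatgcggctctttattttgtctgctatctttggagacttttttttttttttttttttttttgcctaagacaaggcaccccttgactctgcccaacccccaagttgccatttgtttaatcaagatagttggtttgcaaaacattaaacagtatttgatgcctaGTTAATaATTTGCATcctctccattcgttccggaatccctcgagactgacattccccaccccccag

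All members of the parietal endoderm and basement membrane list rose (13 of 13, median 3.26). Parietal endoderm lays down Reichert's membrane, a thick sheet of laminin and type IV collagen. Col4a1, a chain of type IV collagen, had 1341 and 1176 CPM in the differentiated libraries, against 21.3 and 25.7 CPM in the undifferentiated ones (log2 fold change 5.72 ± 0.21, adjusted p = 3.38e-10). Its partner chain Col4a2 had 628 and 579 CPM against 1.18 and 10.3 CPM (6.55 ± 0.35, adjusted p = 3.95e-09). Sparc, a matrix glycoprotein abundant in parietal endoderm, had 1595 and 1674 CPM against 92.1 and 128 CPM (3.88 ± 0.18, adjusted p = 1.61e-09). The laminin chain genes rose by unequal amounts, from 2.65 ± 0.18 for Lama1 and 2.78 ± 0.29 for Lamb1 to 0.36 ± 0.13 for Lamc1. Plat, the tissue plasminogen activator that parietal cells secrete, had 44.4 and 56.4 CPM against 0 (at least 35.3-fold higher, adjusted p = 4.33e-06). Pth1r, the receptor through which parietal fate is induced, had 15.8 and 9.71 CPM against 1.18 and 0 CPM, a ratio of 23.5-fold (95% counting interval 3.96 to 951) (adjusted p = 0.000771). The number of members called was between 11 and 13 when any single library was left out. Several of these genes are also made by mesenchyme, whose markers rose in the same libraries, and the part of each cell type was not tested. In bulk RNA, more cells of a type and more RNA per cell cannot be told apart, here and below.

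Markers of fibroblasts and mesenchyme showed some of the largest rises of any list. Of 27 listed genes 26 were tested and 23 rose, none fell, and the median was 7.21, or 5.85 with genes at 0 counts set to their bound. The summed level of the list was 34193 and 33745 CPM in the differentiated libraries, against 1025 and 1140 CPM in the undifferentiated ones. Col1a1, a chain of type I collagen, had 6097 and 5253 CPM in the differentiated libraries, against 0 and 25.7 CPM in the undifferentiated ones (log2 fold change 8.61 ± 0.62, adjusted p = 6.88e-08). Acta2, smooth muscle actin, had 1208 and 1305 CPM against 0 and 8.57 CPM (7.98 ± 0.43, adjusted p = 4.55e-09). Tagln, an actin-binding protein of smooth muscle, had 359 and 412 CPM against 2.36 and 3.43 CPM (6.99 ± 0.37, adjusted p = 3.95e-09). Both differentiated libraries carried these transcripts at nearly equal levels. Undifferentiated replicate 1 held next to none, whereas replicate 2 held some: Postn, a matricellular protein, had 2738 and 3064 CPM in differentiated libraries, against 0 and 23.1 CPM in undifferentiated replicates 1 and 2, and Col3a1, type III collagen, had 7652 and 7898 CPM against 0 and 53.1 CPM. Fn1, fibronectin, was already present before differentiation (6330.0 and 5971 CPM against 925 and 888 CPM, 2.76 ± 0.23, adjusted p = 3.71e-07). Prrx1, Twist1 and Thy1 were not called (adjusted p = 0.0813, 0.201 and 0.915). The count was 21 to 24 without any single library.

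Cardiac genes rose in part. Of 26 listed genes 20 were tested, 10 rose and 2 fell, with a median of 4.31, or 2.02 at the bound. Tbx20, a T-box factor of the heart field, had 531 and 575 CPM in the differentiated libraries, against 2.36 and 6.85 CPM in the undifferentiated ones (log2 fold change 6.79 ± 0.33, adjusted p = 2.19e-09). Hand1, a basic helix-loop-helix factor of extraembryonic and lateral mesoderm and heart, had 205 and 210.4 CPM against 0 and 0.857 CPM, a ratio of 420.4-fold (95% counting interval 75.2 to 16630.0) (adjusted p = 5.47e-08). Hand2, its relative, had 183 and 168 CPM against 0 and 3.43 CPM (6.43 ± 0.68, adjusted p = 3.11e-06). All 3 were at like levels in both differentiated libraries. Ankrd1, a muscle protein that binds titin, had 52.2 and 50.9 CPM against 0 (at least 34.5-fold higher, adjusted p = 2.54e-07). Actc1, cardiac actin, had 4.93 and 6.94 CPM against 0 (at least 4.23-fold higher, adjusted p = 0.00358), and Tnnt2, cardiac troponin T, had 4.93 and 6.47 CPM against 0 and 2.57 CPM and was not called (adjusted p = 0.0809). Myl2, Myl3, Tnni3, Nppa, Nppb and Nkx2-5 were too low to test. The falls were those of Smyd1, a muscle methyltransferase (1.97 and 4.16 CPM against 38.97 and 40.3 CPM, -3.53 ± 0.54, adjusted p = 9.27e-05), and Ttn, titin (51.3 and 61.5 CPM against 252 and 231 CPM, -2.08 ± 0.29, adjusted p = 3.87e-05), both of them genes that these undifferentiated cells expressed.

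Genes of mesoderm, vessels and embryonic blood rose at lower levels. Of 15 streak and early mesoderm genes 7 were tested and 5 rose. Pdgfra, a growth factor receptor of mesoderm and extraembryonic endoderm, had 154 and 155 CPM in the differentiated libraries, against 1.18 and 2.57 CPM in the undifferentiated ones (log2 fold change 6.24 ± 0.44, adjusted p = 1.05e-07). Bmp4, a signal of extraembryonic tissue and mesoderm, had 140.0 and 139 CPM against 22.4 and 20.6 CPM (2.70 ± 0.25, adjusted p = 9.07e-07). The streak genes T, Mixl1, Mesp1 and Wnt3a did not pass the filter. Of 29 blood and endothelial genes 21 were tested, 11 rose and 2 fell. Kdr (Flk1), a VEGF receptor of endothelium and its precursors, had 83.8 and 97.1 CPM against 1.18 and 1.71 CPM, a ratio of 62.4-fold (95% counting interval 21.1 to 304) (adjusted p = 3.64e-05). Flt1, a second VEGF receptor, had 71.97 and 56.4 CPM against 2.36 and 4.28 CPM (4.17 ± 0.59, adjusted p = 4.42e-05). The embryonic globin gene Hbb-bh1 had 107 and 135 CPM against 0 and 2.57 CPM, a ratio of 84.5-fold (95% counting interval 28.7 to 412) (adjusted p = 0.00538). Tal1 and Lmo2, early regulators of blood, were not called (adjusted p = 0.793 and 0.935). These counts rested on single libraries: 2 streak genes rose without undifferentiated replicate 2, and 6, 6 and 7 blood and endothelial genes rose without undifferentiated replicate 1, undifferentiated replicate 2 and differentiated replicate 2. The 2 falls, of Pecam1 and Eng, were not called without any library of the RlimKO-labelled line or of the undifferentiated WT female pair, and 1 was called without any library of the undifferentiated male or differentiated WT female pair.

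Of 18 genes of simple epithelium, all tested, 5 rose and 5 fell, shares close to those over all genes. Krt8, a keratin of simple epithelia, had 342 and 357 CPM in the differentiated libraries, against 5.90 and 5.14 CPM in the undifferentiated ones (log2 fold change 5.98 ± 0.33, adjusted p = 5.37e-09). Krt18, its partner, had 219 and 244 CPM against 5.90 and 11.99 CPM (4.62 ± 0.48, adjusted p = 2.77e-06). Krt19 had 161 and 189 CPM against 0 and 0.857 CPM, a ratio of 362-fold (95% counting interval 64.7 to 14326) (adjusted p = 3.97e-08). Each of these keratins was present at like levels in both differentiated libraries. E-cadherin (Cdh1) had 118 and 119 CPM against 635 and 554 CPM (-2.32 ± 0.40, adjusted p = 0.000261), and Epcam had 36.5 and 32.4 CPM against 132 and 149 CPM (-2.05 ± 0.40, adjusted p = 0.000695). Of the falls, 2 were called without differentiated replicate 2. In the mesenchymal list, whose regulators Twist1 and Prrx1 were not called, Zeb2, a repressor of E-cadherin, had 307 and 280.3 CPM against 9.45 and 8.57 CPM (5.02 ± 0.58, adjusted p = 6.91e-06), and Snai2 had 93.7 and 90.2 CPM against 0 and 1.71 CPM, a ratio of 91.9-fold (95% counting interval 25.2 to 763) (adjusted p = 1.53e-06).

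Most neural genes fell or were too low to test. Of 26 listed genes 12 were tested, 9 fell and 2 rose (median -4.08), and Pax3, Neurog2, Hes5 and Olig2 were among those too low to test. Stmn2, a tubulin-binding protein of neurons, had 6.90 and 16.2 CPM in the differentiated libraries, against 199.6 and 189 CPM in the undifferentiated ones (log2 fold change -3.92 ± 0.29, adjusted p = 7.91e-08). Sox1, the earliest marker of neural ectoderm, had 0 CPM against 20.1 and 11.99 CPM (at least 16.3-fold lower, adjusted p = 0.000637). Pax6, a homeodomain factor of neural progenitors, had 0 and 0.462 CPM against 14.2 and 19.7 CPM, a ratio of 55.2-fold (95% counting interval 9.28 to 2242) (adjusted p = 0.00032). Sox1 and Pax6 were thus at low levels in undifferentiated libraries, whereas Stmn2 was not low there and remained detectable in differentiated ones. The rises were those of Sox11, a factor also used in mesenchyme (136 and 123 CPM against 35.4 and 41.1 CPM, 1.74 ± 0.21, adjusted p = 1.22e-05), and Nes, the intermediate filament nestin (72.95 and 76.8 CPM against 47.2 and 37.7 CPM, 0.83 ± 0.27, adjusted p = 0.0196). Only 1 of these rises was called without undifferentiated replicate 2 or differentiated replicate 2.

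Trophoblast, Hox and germline lists gave small counts. Of 13 trophoblast genes 7 were tested and 5 rose, led by Rhox6, an X-linked homeobox gene of placenta and germ cells (28.6 and 38.4 CPM in differentiated against 2.36 and 2.57 CPM in undifferentiated libraries, 3.74 ± 0.53, adjusted p = 4.75e-05). Cdx2, a factor of trophectoderm and of posterior mesoderm, had 9.86 and 8.79 CPM against 0 (at least 6.13-fold higher, adjusted p = 0.00256). The placental hormone and spongiotrophoblast genes Prl3d1, Prl2c2 and Tpbpa had no count, and 3 of the 5 rises were called without either undifferentiated replicate or differentiated replicate 2. Of 39 Hox genes 10 were tested and 8 rose, with a median of 6.51, or 2.76 at the bound. Hoxb3 had 14.8 and 7.40 CPM against 0 (at least 6.55-fold higher, adjusted p = 0.0016) and Hoxc8 13.8 and 13.4 CPM against 0 (at least 9.09-fold higher, adjusted p = 0.0205). The Hox count was 4 without undifferentiated replicate 1 or either differentiated replicate and 1 without undifferentiated replicate 2. Of 11 tested meiosis and germline genes 9 fell and none rose (median -3.83), among them Stag3, a meiotic cohesin subunit (27.6 and 23.1 CPM against 199.6 and 236 CPM, -3.13 ± 0.20, adjusted p = 2.04e-08), and Hormad1, a protein of meiotic chromosome axes (0 and 0.462 CPM against 48.4 and 52.3 CPM, a ratio of 161-fold (95% counting interval 28.2 to 6415), adjusted p = 2.56e-06). Zscan4c, a gene of the 2-cell-like state, had 0 and 0.462 CPM against 12.99 and 11.1 CPM (adjusted p = 0.00612). Its near-identical copy Zscan4d, with which it may share reads, had 0 CPM against 8.27 and 6.85 CPM (adjusted p = 0.00313), and 1 and 0 of these 2 falls were called without differentiated replicates 1 and 2.

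Imprinted genes were among the most changed. Of 16 paternally expressed genes 15 were tested, 13 rose and none fell (median 4.12), and of 9 maternally expressed genes 8 were tested, 6 rose and 2 fell (median 2.63). Imprinted genes are read from a single parental copy, and many of them act on growth of the embryo and placenta. H19, a noncoding RNA expressed from the maternal copy in endoderm and mesoderm, had 10456 and 8387 CPM in the differentiated libraries, against 4.72 and 25.7 CPM in the undifferentiated ones (log2 fold change 9.15 ± 0.53, adjusted p = 9.76e-09). Igf2, the growth factor gene beside it, had 786 and 572 CPM against 1.18 and 34.3 CPM (5.10 ± 0.58, adjusted p = 5.68e-06). Peg10, a retrotransposon-derived gene needed in placenta, had 5814 and 5533 CPM against 326 and 327 CPM (4.12 ± 0.17, adjusted p = 7.95e-10). These genes were high in both differentiated libraries, while H19 and Igf2 differed between the undifferentiated replicates. Peg3, a zinc finger gene, had 5282 and 5899 CPM against 146 and 198 CPM (5.01 ± 0.33, adjusted p = 3.10e-08). Plagl1, a zinc finger regulator of other imprinted genes, had 2416 and 2391 CPM against 4.72 and 7.71 CPM (8.53 ± 0.63, adjusted p = 8.89e-08). Dlk1, a NOTCH-like surface protein, had 402 and 338 CPM against 1.18 and 0.857 CPM, a ratio of 361-fold (95% counting interval 99.7 to 2983) (adjusted p = 7.74e-08). The falls were those of Grb10, an adaptor that restrains growth (5.91 and 8.32 CPM against 148 and 128 CPM, -4.19 ± 0.30, adjusted p = 6.63e-08), and Igf2r, the receptor that degrades IGF2 (71.97 and 67.5 CPM against 217 and 197 CPM, -1.57 ± 0.17, adjusted p = 4.46e-06). Airn, the antisense RNA that silences Igf2r, had 81.8 and 100.4 CPM against 0 (at least 63.4-fold higher, adjusted p = 9.55e-07). Airn was also higher in differentiated male libraries (80.6 and 47.4 CPM against 0.709 and 2.10 CPM), where Igf2r was higher too. A link between the changes of these genes was not tested. As the library type does not mark strand, reads where Igf2r and Airn overlap could not be assigned, and the same holds for Xist and Tsix. Counts alone do not show which parental copy was read.

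Xist rose as stem cells differentiated. It had 2149 and 2059 CPM in the differentiated libraries, against 292 and 318 CPM in the undifferentiated ones (log2 fold change 2.79 ± 0.19, adjusted p = 3.60e-08), and the change did not differ detectably from that of the WT female line (-0.55 ± 0.25, adjusted p = 0.484). Tsix, the antisense repressor of Xist, had 2.96 and 3.70 CPM against 24.8 and 35.98 CPM (-3.14 ± 0.60, adjusted p = 0.000584). Ftx (listed as B230206F22Rik), a noncoding gene beside Xist, had 84.8 and 58.7 CPM against 35.4 and 28.3 CPM (1.16 ± 0.34, adjusted p = 0.0113), with an adjusted p of up to 0.0744 in the 2 of 12 models without a single library that did not call it. Jpx (listed as Enox), whose RNA activates Xist, did not pass the test (8.87 and 6.01 CPM against 2.36 and 1.71 CPM, 1.82 ± 0.98, adjusted p = 0.137). Of 9 tested genes of the X inactivation centre, 3 rose (Xist, Rlim and Ftx) and 3 fell (Tsix, Chic1 and Nap1l2).

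**Figure D3:**
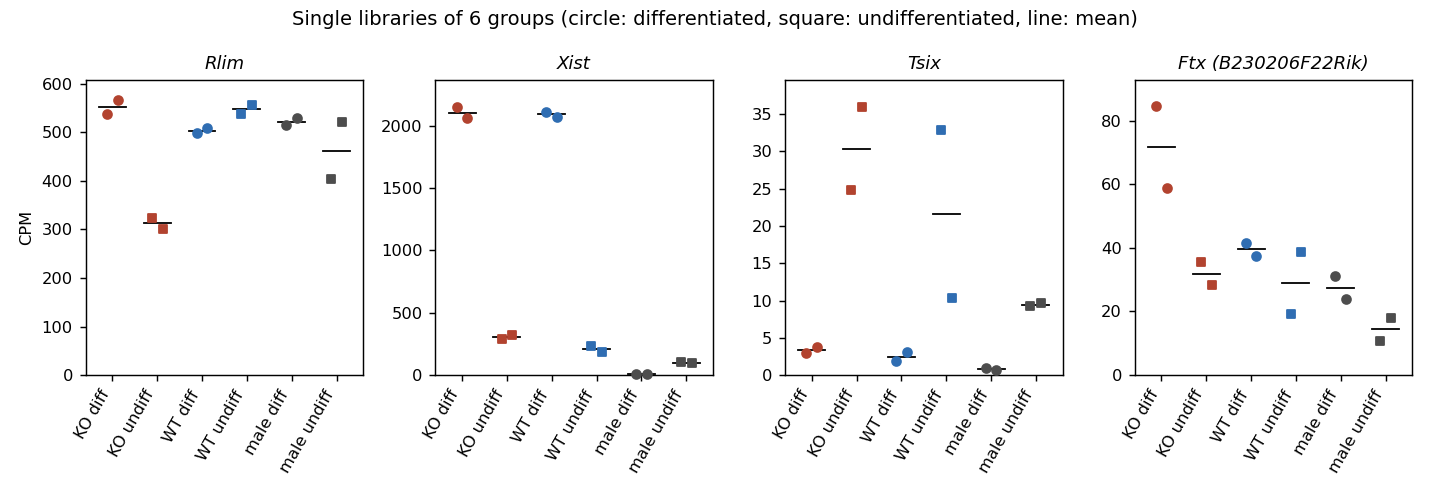
CPM of Rlim, Xist, Tsix and Ftx in single libraries of 6 groups (KO, RlimKO-labelled female; WT, female Pgk12.1; male, E14), differentiated (circles) left of undifferentiated (squares), with a line at the mean of 2. In RlimKO-labelled libraries Rlim is at 538 and 567 CPM after and 324 and 302 CPM before differentiation, and Xist is higher in the 4 differentiated female libraries than in any other library.

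X-linked genes went down relative to autosomes. Over 481 X-linked genes tested, Xist and Tsix left aside, the median change on the log2 scale was -0.496 in the RlimKO-labelled line, against -0.0006 for autosomal genes, which is a shift of -0.495, or -0.123 with no filter on low counts. Taken between single libraries on the scale of log2(CPM + 1), the shift ran from -0.480 to -0.454. Medians of single autosomes lay between -0.168 and 0.230. Of the X-linked genes 88 rose (18.3%) and 206 fell (42.8%). The same shift was -0.566 in the WT female line and 0.212 in the male line. X-linked transcripts made up 3.66% and 3.77% of the counts of the differentiated libraries, against 5.10% and 5.34% of those of the undifferentiated ones, which do not overlap (exact permutation test, two-sided, p = 0.3333, the smallest that 2 against 2 libraries allow). With Rn45s and Lars2 kept in the total, the difference was -0.847 percentage points in place of -1.51, the libraries overlapped, and the exact permutation p was 0.6667.

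**Figure D4:**
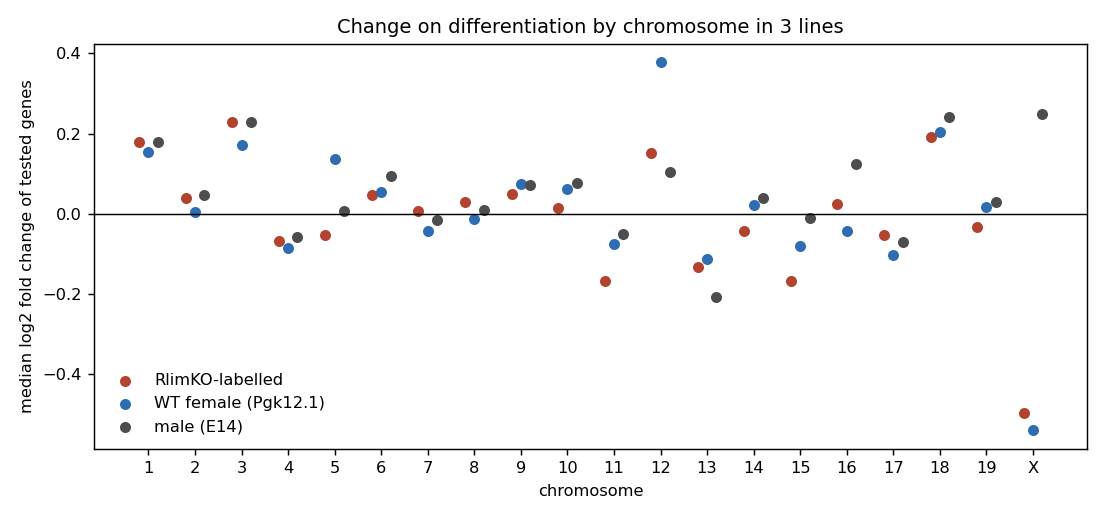
Median log2 fold change on differentiation of the tested genes of each chromosome in the RlimKO-labelled line (red), the WT female line (blue) and the male line (grey). The X chromosome lies at -0.496 in the RlimKO-labelled and -0.540 in the WT female line, below all autosomes, and at 0.249 in the male line.

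Single X-linked genes moved far in both directions. Nrk, a kinase of the placenta, had 612 and 629 CPM in the differentiated libraries, against 4.72 and 4.28 CPM in the undifferentiated ones (log2 fold change 7.10 ± 0.31, adjusted p = 1.15e-09). Amot, a regulator of Hippo signalling and cell polarity, had 282 and 314 CPM against 5.90 and 6.85 CPM (5.52 ± 0.28, adjusted p = 3.10e-09). Col4a5, a type IV collagen chain, had 499 and 484 CPM against 2.36 and 5.14 CPM (6.93 ± 0.54, adjusted p = 1.64e-07). These rises ran against the median of the chromosome and were present in both replicates. Slc7a3, a carrier of arginine and lysine, had 3.94 and 7.40 CPM against 269 and 314 CPM (-5.54 ± 0.26, adjusted p = 1.61e-09). Dkc1, the pseudouridine synthase dyskerin, had 80.8 and 78.2 CPM against 665 and 748 CPM (-3.15 ± 0.16, adjusted p = 3.68e-09). Prps1, which makes the precursor of nucleotides, had 33.5 and 27.3 CPM against 311 and 381 CPM (-3.54 ± 0.19, adjusted p = 3.95e-09). Pnma5 had 0 and 1.85 CPM against 228 and 269 CPM (-7.57 ± 0.43, adjusted p = 7.72e-09).

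Genes reported to escape X inactivation fell too. Of 8 tested, 6 fell and none rose (median -0.99), with 3 falls called without undifferentiated replicate 1 or differentiated replicate 2. Eif2s3x, a subunit of a translation initiation factor, had 109 and 122 CPM in the differentiated libraries, against 329 and 421 CPM in the undifferentiated ones (log2 fold change -1.70 ± 0.17, adjusted p = 1.76e-06). Kdm6a, a histone H3K27 demethylase, had 155 and 199 CPM against 237 and 259 CPM (-0.48 ± 0.17, adjusted p = 0.0313), which was not called with RLE scaling, with Rn45s and Lars2 kept, with no filter, by DESeq2 or in 10 of the 12 models without a single library. Of 8 X-linked pluripotency and MAPK regulators 4 fell, and 2 did without undifferentiated replicate 1 or either differentiated replicate. Over all 481 X-linked genes tested, 42.8% fell. Tfe3, a factor that holds cells in the naive state, had 52.2 and 53.6 CPM against 196 and 193 CPM (-1.87 ± 0.21, adjusted p = 6.00e-06). Dusp9, a phosphatase of ERK, had 91.7 and 99.9 CPM against 208 and 154 CPM (-0.90 ± 0.24, adjusted p = 0.00564). Klhl13, an adaptor of a ubiquitin ligase, fell by 0.69 ± 0.26 (adjusted p = 0.0394), but not with RLE scaling, with Rn45s and Lars2 kept, by DESeq2 or in 10 of the 12 models without a single library.

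Of 17 genes that act with Xist in silencing, 2 rose, 5 fell and 10 were not called, a share of calls close to that over all genes. Pcgf5, a subunit of the polycomb complex that Xist recruits, had 33.5 and 46.7 CPM in the differentiated libraries, against 9.45 and 6.85 CPM in the undifferentiated ones (log2 fold change 2.34 ± 0.40, adjusted p = 0.000219). Ezh2, the H3K27 methyltransferase, had 96.6 and 83.2 CPM against 157 and 179 CPM (-0.92 ± 0.17, adjusted p = 0.000478). Spen, the RNA-binding repressor that Xist needs, had 137 and 130.4 CPM against 239 and 164 CPM (-0.59 ± 0.20, adjusted p = 0.0281). Smchd1, which maintains silencing, was not called (-0.20 ± 0.15, adjusted p = 0.289). The count of falls was 1 without either differentiated library of the line, 2 without undifferentiated replicate 2, any WT female library or undifferentiated male replicate 1, and 3 without undifferentiated replicate 1 or undifferentiated male replicate 2. Of 6 tested substrates and partners of RLIM, 2 rose and 2 fell. Terf1, a telomere protein that RLIM is known to degrade in human cells, had 36.5 and 41.2 CPM against 124 and 82.2 CPM (-1.38 ± 0.34, adjusted p = 0.00368), Sin3a, a corepressor subunit, had 166 and 187 CPM against 334 and 368 CPM (-0.99 ± 0.18, adjusted p = 0.000358), and Lmo4, a LIM-only protein, had 30.6 and 31.4 CPM against 10.6 and 13.7 CPM (1.33 ± 0.36, adjusted p = 0.0074). The rises numbered 1 without any single library of the line, and the falls 1 without undifferentiated replicate 1.

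Hypoxia response genes rose in part, and glycolytic genes did not rise with them. Differentiated cells had been kept in 7.5% oxygen, which the labels do not give for undifferentiated cells. Of 17 hypoxia genes 8 rose and 1 fell, and of 15 tested glycolytic genes 1 rose and 7 fell. P4ha1, a collagen prolyl hydroxylase, had 546 and 596 CPM in the differentiated libraries, against 51.96 and 52.3 CPM in the undifferentiated ones (log2 fold change 3.45 ± 0.23, adjusted p = 4.12e-08). Slc2a1, the glucose transporter GLUT1, had 1141 and 1359 CPM against 537 and 527 CPM (1.23 ± 0.15, adjusted p = 9.45e-06). Vegfa, the vascular growth factor, had 135 and 118 CPM against 56.7 and 53.96 CPM (1.19 ± 0.19, adjusted p = 0.000141). Collagen genes rose in the same libraries, and their part in the level of P4ha1 was not tested. Egln3 and Pdk1 were not called (0.13 ± 0.25 and 0.01 ± 0.16, adjusted p = 0.685 and 0.972). Pkm (listed as Pkm2), pyruvate kinase, had 1401 and 1456 CPM against 2539 and 2441 CPM (-0.80 ± 0.12, adjusted p = 0.000111), Pfkp, the platelet-type phosphofructokinase, had 104 and 109.6 CPM against 246 and 277 CPM (-1.29 ± 0.17, adjusted p = 2.14e-05), and Ldhb had 26.6 and 24.97 CPM against 85.02 and 111 CPM (-1.94 ± 0.37, adjusted p = 0.000642). Gapdh, a gene with many pseudogene copies, had 67.04 and 78.2 CPM against 197 and 152 CPM (-1.24 ± 0.20, adjusted p = 0.000174), and its reads may have been split. The 1 glycolytic rise, of Pfkm, became 2, 3 and 2 without undifferentiated replicate 1, differentiated male replicate 1 and differentiated male replicate 2.

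Lysosomal genes rose in part, and few genes of cholesterol synthesis changed. Of 23 lysosomal genes 11 rose and 2 fell (median 0.61). Psap, the precursor of the saposins, had 302 and 387 CPM in the differentiated libraries, against 115 and 128 CPM in the undifferentiated ones (log2 fold change 1.51 ± 0.16, adjusted p = 3.39e-06). Lipa, the acid lipase that frees cholesterol in lysosomes, had 68.02 and 65.7 CPM against 9.45 and 11.99 CPM (2.61 ± 0.30, adjusted p = 6.00e-06). Ctsh, a cathepsin, had 43.4 and 37.9 CPM against 1.18 and 1.71 CPM, a ratio of 26.6-fold (95% counting interval 8.91 to 131) (adjusted p = 9.55e-05). Lamp1, a lysosomal membrane protein, fell by 0.91 ± 0.15 (adjusted p = 0.000164). Of 20 cholesterol genes 3 rose and 3 fell. Insig1, a sterol sensor that holds back the pathway, had 68.02 and 79.1 CPM against 176 and 153 CPM (-1.15 ± 0.24, adjusted p = 0.00135). Stard4, a carrier of cholesterol between membranes, had 90.7 and 92.5 CPM against 46.1 and 51.4 CPM (0.91 ± 0.19, adjusted p = 0.00139). The rises numbered 1 without differentiated replicate 2.

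Genes of the cell cycle went down. Of 23 cell division genes 20 fell and none rose (median -1.11), or 13 without undifferentiated replicate 2 or differentiated replicate 1. Ccne1, the cyclin that drives entry into S phase and is high throughout the cycle of stem cells, had 25.6 and 30.99 CPM in the differentiated libraries, against 236 and 227 CPM in the undifferentiated ones (log2 fold change -3.002 ± 0.19, adjusted p = 1.98e-08). Mcm5, a subunit of the replicative helicase, had 164 and 189.6 CPM against 555 and 511 CPM (-1.58 ± 0.16, adjusted p = 1.96e-06). Mki67, a marker of cycling cells, had 1074 and 1179 CPM against 1542 and 1637 CPM (-0.50 ± 0.14, adjusted p = 0.0102). Transcripts of dividing cells were reduced but far from absent. Of 8 D-type cyclins and cell cycle inhibitors 5 rose and 1 fell, and 3 rose without undifferentiated replicate 2. Cdkn1b, the inhibitor p27, had 104 and 88.3 CPM against 25.98 and 28.3 CPM (1.81 ± 0.25, adjusted p = 3.62e-05). Ccnd2 had 260.3 and 229.9 CPM against 68.5 and 76.2 CPM (1.75 ± 0.33, adjusted p = 0.00059), whereas Ccnd1 had 50.3 and 43.5 CPM against 189 and 207 CPM (-2.10 ± 0.27, adjusted p = 2.24e-05).

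Of 16 tested Nodal, BMP and WNT genes 8 rose and 5 fell. Lefty2, an inhibitor of Nodal, had 10.8 and 8.79 CPM in the differentiated libraries, against 485 and 475 CPM in the undifferentiated ones (log2 fold change -5.65 ± 0.26, adjusted p = 1.57e-09), and Nodal itself had 1.97 and 1.85 CPM against 48.4 and 56.5 CPM (-4.75 ± 0.72, adjusted p = 8.27e-05). Id2, a gene that BMP induces in many cells, had 46.3 and 42.5 CPM against 7.08 and 10.3 CPM (2.31 ± 0.42, adjusted p = 0.000373), and Smad6, an inhibitor induced by BMP, had 59.1 and 44.4 CPM against 8.27 and 3.43 CPM (3.19 ± 0.42, adjusted p = 2.52e-05). Nkd1, a feedback inhibitor of WNT, had 90.7 and 79.5 CPM against 0 and 2.57 CPM, a ratio of 55.8-fold (95% counting interval 18.9 to 272) (adjusted p = 7.93e-07), while Axin2, a widely used WNT target, was not called (0.48 ± 0.40, adjusted p = 0.337). Of 12 tested MAPK feedback genes 3 rose and 3 fell, and 5 rose without either differentiated male library. Etv5, an ETS factor induced by FGF, had 20.7 and 30.1 CPM against 358 and 274 CPM (-3.57 ± 0.34, adjusted p = 1.18e-06), and Spry4, a feedback inhibitor, had 25.6 and 19.4 CPM against 107 and 93.4 CPM (-2.19 ± 0.23, adjusted p = 2.38e-06). Dusp4, a phosphatase of ERK, had 45.3 and 53.6 CPM against 9.45 and 10.3 CPM (2.33 ± 0.32, adjusted p = 3.78e-05). The fall of its relative Dusp6 (47.3 and 38.4 CPM against 69.7 and 59.96 CPM, -0.61 ± 0.23, adjusted p = 0.0381) was not called with RLE scaling, with Rn45s and Lars2 kept, with no filter, by DESeq2 or in 10 of the 12 models without a single library.

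DNA methylation genes mostly fell: 7 of 9 tested, with 1 rise (median -1.31). Tet1, the dioxygenase that oxidises 5-methylcytosine in stem cells, had 134 and 148 CPM in the differentiated libraries, against 1770.0 and 1790.3 CPM in the undifferentiated ones (log2 fold change -3.65 ± 0.14, adjusted p = 5.72e-10). Tet3, its relative, had 200.1 and 161 CPM against 35.4 and 30.8 CPM (2.45 ± 0.26, adjusted p = 3.39e-06). Zfp57, which keeps methylation at imprinted regions, had 105 and 106 CPM against 344 and 371 CPM (-1.76 ± 0.16, adjusted p = 7.98e-07). Loss of Tet1 and gain of Tet3 were seen in both replicates. Of 12 p53 targets 2 rose and 4 fell, with 1 fall called without undifferentiated replicate 1 or differentiated replicate 2, and 2 called without the other 2 libraries of the line, any WT female library or undifferentiated male replicate 1. Ccng1, cyclin G1, had 456 and 504 CPM against 219.6 and 239.8 CPM (1.06 ± 0.20, adjusted p = 0.000582). Pmaip1, which promotes cell death, had 14.8 and 15.3 CPM against 53.1 and 54.8 CPM (-1.84 ± 0.33, adjusted p = 0.000351), and the small fall of Bax (-0.59 ± 0.22, adjusted p = 0.0419) was not called with RLE scaling, with Rn45s and Lars2 kept, with no filter, by DESeq2 or in 10 of the 12 models without a single library. Of 9 tested genes of heat shock and handling stress 3 rose and 3 fell. Hspb1, a small heat shock protein, had 45.3 and 44.9 CPM against 289 and 286 CPM (-2.67 ± 0.18, adjusted p = 4.19e-08). Jun, an immediate early gene, had 80.8 and 73.5 CPM against 1.18 and 6.85 CPM (4.10 ± 0.48, adjusted p = 7.49e-06), and Fos had 19.7 and 21.3 CPM against 1.18 and 0.857 CPM, a ratio of 20.9-fold (95% counting interval 5.57 to 176) (adjusted p = 0.00139); tissue handling also induces both, and its part was not tested.

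The change in the RlimKO-labelled line was close to that in the WT female line, with which it shares no library. The calls of all lines come from 1 model of 12 libraries and share its estimates of spread. Of the 6139 genes called in the RlimKO-labelled line 4803 (78.2%) were called in the same direction in the WT female line. There 50.1% of genes were called, 25.8% as rises and 24.3% as falls. The shared calls are 77.3% of the WT calls. A further 9 were called in opposite directions, and 4120 were called in the same direction in all 3 lines. The male line had calls for 54.9% of genes, 29.2% as rises and 25.7% as falls. Across 12417 genes the log2 fold changes of the female lines had a Pearson r of 0.866 and a Spearman rho of 0.870, a description over genes that are not independent. A difference between the 2 changes was called for 29 genes (0.234%), 9 higher (0.0725%) and 20 lower (0.161%) in the RlimKO-labelled line, with 1243 at an unadjusted p below 0.05. This number depends on the model: 522 were called from the 8 female libraries alone and 56 by DESeq2, and it was 2 without any library of the RlimKO-labelled line or either differentiated WT female library, 3 and 6 without undifferentiated WT female replicates 1 and 2, 14 and 13 without the undifferentiated males, and 456 and 455 without the differentiated males.

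Ckb and Man2a1 were the 2 differences called in all 12 models that left out a single library. Ckb, brain-type creatine kinase, had 42.4 and 42.5 CPM in differentiated and 346 and 323 CPM in undifferentiated RlimKO-labelled libraries, against 159 and 152 CPM in differentiated and 259.6 and 271 CPM in undifferentiated WT female ones (difference -2.20 ± 0.22, adjusted p = 0.000759). Man2a1, a mannosidase of the Golgi, had 506 and 556 CPM in differentiated and 43.7 and 49.7 CPM in undifferentiated RlimKO-labelled libraries, against 116 and 116 CPM in differentiated and 58.3 and 45.2 CPM in undifferentiated WT female ones (difference 2.33 ± 0.26, adjusted p = 0.00133). Man2a1 rose in both lines, and the higher level was that of differentiated RlimKO-labelled cells. Ckb fell in both, and its lowest level among the female libraries was in those same cells. Ckb was singled out after its values were seen, as it lies outside the naming rule.

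Some of the other differences lie in the gene groups above. Some residual transcripts of the undifferentiated state were lower in differentiated RlimKO-labelled libraries: Tdgf1, the Nodal coreceptor Cripto, had 17.7 and 13.4 CPM there and 54.5 and 58.8 CPM in differentiated WT cells, while undifferentiated cells had 517 and 562 CPM in the RlimKO-labelled and 628 and 554 CPM in the WT line (difference -1.78 ± 0.31, adjusted p = 0.0338). Lefty2 had 10.8 and 8.79 CPM there and 45.3 and 40.1 CPM in differentiated WT cells (-2.41 ± 0.34, adjusted p = 0.0121). Of 22 naive genes none was called, 10 had an unadjusted p below 0.05 and the median difference was -0.83. Grb10 fell in the RlimKO-labelled line to 5.91 and 8.32 CPM, and stood at 47.2 and 53.3 CPM in differentiated WT cells (-2.68 ± 0.39, adjusted p = 0.0121). Lrp2, the uptake receptor megalin, had 332 and 376 CPM in differentiated and 145 and 209.9 CPM in undifferentiated RlimKO-labelled libraries, against 104 and 97.4 CPM in differentiated and 171 and 137 CPM in undifferentiated WT ones (1.59 ± 0.29, adjusted p = 0.0455), so the lines moved in opposite directions. Sox11 and Nes rose less in RlimKO-labelled cells (-2.33 ± 0.34 and -2.58 ± 0.40, adjusted p = 0.0121 and 0.015). Zim1, an imprinted zinc finger gene, stayed at 10.8 and 5.09 CPM in differentiated RlimKO-labelled cells, against 151 and 150.1 CPM in differentiated WT cells (-4.15 ± 0.75, adjusted p = 0.042). Egln3 did not rise as it did in the WT line (48.3 and 46.2 against 88.4 and 82.2 CPM after differentiation, -2.43 ± 0.38, adjusted p = 0.0165). The gap after differentiation is smaller than this difference, and Egln3 was also higher in undifferentiated RlimKO-labelled than in undifferentiated WT libraries. The median difference was -0.39 over the hypoxia list and -0.73 over the glycolysis list, where 10 of 15 genes had an unadjusted p below 0.05 and none was called.

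**Figure D5:**
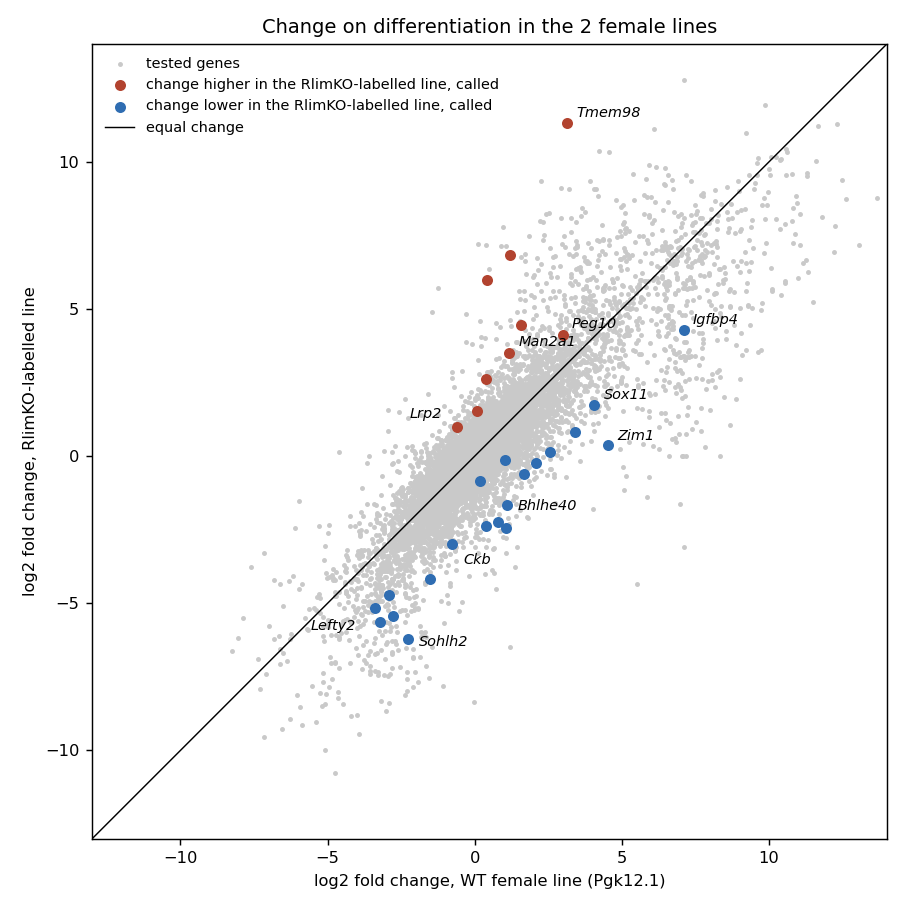
Log2 fold change on differentiation in the RlimKO-labelled line (y axis) against the WT female line (x axis) for 12417 tested genes, with the 29 genes whose changes differed in colour (9 higher in red, 20 lower in blue) and the line of equal change. Most genes lie along the line, and Tmem98, without counts in undifferentiated RlimKO-labelled libraries, lies farthest above it among these 29.

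Against the male line 315 genes differed in their change (2.54%), 127 higher (1.02%) and 188 lower (1.51%), with 2235 at an unadjusted p below 0.05. The differentiated male libraries were unlike each other (a chi-square statistic 27.9 times its degrees of freedom over genes; the differentiated RlimKO-labelled pair had 2.0), and 2044 and 1485 genes were called without differentiated male replicates 1 and 2. The number was 74 and 65 without differentiated RlimKO-labelled replicates 1 and 2, 77 and 46 without undifferentiated ones, 165 and 152 without differentiated WT female ones, and 104 and 60 without undifferentiated male ones. With Rn45s and Lars2 kept, 194 of 334 calls were higher in the RlimKO-labelled line. Xist rose in the RlimKO-labelled line and fell in the male line, from a low level (11.96 and 6.20 CPM in differentiated and 101 and 96.6 CPM in undifferentiated male libraries, -3.55 ± 0.24, adjusted p = 2.54e-08), a difference of 6.34 ± 0.30 (adjusted p = 1.66e-08). Reads where Xist overlaps Tsix could not be assigned by strand, in the male libraries as in the others. Igf2r fell in the RlimKO-labelled line but had 4064 and 3122 CPM in differentiated and 276 and 252 CPM in undifferentiated male libraries (difference -5.34 ± 0.24, adjusted p = 1.18e-08). Grb10 differed in the same way, with 2027 and 1268 CPM in differentiated and 364 and 353 CPM in undifferentiated male libraries (difference -6.39 ± 0.35, adjusted p = 1.01e-07). Sex and cell line cannot be told apart here.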

How the data were processed

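RNA-seq of mouse embryonic stem cells was deposited as counts of reads per gene for 12 libraries, which the authors made, per the submitters' processing notes, with HTSeq 0.6.1p1 on the mm10 build; TopHat2 2.0.12, edgeR 3.10.0 and bcl2fastq 2.16.0.10 are also named there. Per the labels' protocols, cDNA was made by template switching, amplified by PCR and tagmented, which keeps no strand and no molecular identifiers, so intervals and floors cover counting error only. The 5 summary lines of the counter (no feature 48.7% to 50.2% and ambiguous 0.241% to 0.536% of all reads counted in the 4 RlimKO-labelled libraries), Rn45s and Lars2 were left out.

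The counts were fitted here in edgeR 4.0.16 (R 4.3.3): 12 libraries in 6 groups, filterByExpr with a minimum count of 10 (12417 of 23336 genes), TMM scaling, quasi-likelihood test, Benjamini-Hochberg adjustment at 0.05. Library totals without Rn45s and Lars2 ran from 836410 to 5057003. Contrasts were differentiated minus undifferentiated in the RlimKO-labelled line, and the difference of that change from the WT female and male lines. Summed list levels are sums of CPM. Where a state had 0 counts, 3 counts over the pair served as floor; for 1 to 3 counts an exact 95% interval of the ratio is given. The method was tested on simulated counts.

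The 34 gene lists (458 of 573 symbols tested) were chosen with earlier results of these data known. Named genes are Rlim, Xist, Tsix, Jpx and Ftx; the 12 largest rises and falls among calls with a mean of at least 20 CPM and no overlap; the 6 largest differences each way from the WT female line; the 5 X-linked rises and falls of smallest p; up to 6 members of each list by smallest p; and list members not called or moving against their list. Actc1, Afp, Ckb, Col3a1, Fn1, Id2, Igf2, Lamc1, Lrp2, Mki67, Plat, Pth1r, Rif1, Sall4, Snai2, Sox1, Spen and Zeb2 lie outside this rule and were chosen after their values were seen, for their known roles. Some genes that meet the rule are not reported here. Alternatives were RLE scaling, no or stricter filter (50), Rn45s and Lars2 kept, fewer libraries, a replicate block, DESeq2 1.42.0 and leaving out single libraries. Promoters came from RefSeq tables (GRCm38.p6); proteins were not used here.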

Additional observations from a re-analysis of the deposited data

Results flagged for a closer look

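These genes are listed because the test of the difference itself passed: their change on differentiation in the RlimKO-labelled line differed from that in another line (edgeR's quasi-likelihood test, Benjamini-Hochberg adjustment). Values are differences of log2 fold changes ± SE, RlimKO-labelled minus the other line. Differences against the WT female line numbered 2 to 456 when single libraries were left out, and fitted differences of genes at 0 counts in a state are no bounds.

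Against the WT female line, Tmem98 (8.18 ± 1.51, adjusted p = 0.0476) had 169.6 and 169 CPM in differentiated and 0 in undifferentiated RlimKO-labelled libraries, against 80.8 and 60.9 CPM and 7.42 and 8.48 CPM in the WT female ones. Sema3b, a secreted guidance protein, had 69.99 and 57.3 CPM in differentiated RlimKO-labelled and 17.9 and 14.2 CPM in differentiated WT female libraries (5.61 ± 0.91, adjusted p = 0.0194). Papss2, which makes the sulfate donor of matrix proteoglycans, had 39.4 and 32.4 CPM against 9.53 and 10.7 CPM (5.57 ± 1.05, adjusted p = 0.0476). The undifferentiated RlimKO-labelled pair held 1 count of each gene (0 and 0.857 CPM), so both differences rest on a state near the floor. Undifferentiated WT female libraries had 4.24 and 9.42 CPM of Sema3b and 9.54 and 5.65 CPM of Papss2. Differentiated male libraries had 66.9 and 67.2 CPM of Sema3b and 24.8 and 51.3 CPM of Papss2. Gpc4, an X-linked glypican (2.87 ± 0.54), Man2a1 (2.33 ± 0.26), Iqsec1 (2.23 ± 0.34) and the imprinted gene Peg10 (1.12 ± 0.21) were also higher against the WT female line. The lower ones were Zim1 (-4.15 ± 0.75), the germ cell factor gene Sohlh2 (-3.95 ± 0.67), Ndufa4l2, a mitochondrial protein induced by hypoxia (-3.52 ± 0.65), Ccdc141 (-3.03 ± 0.57), Igfbp4 (-2.81 ± 0.52), the WNT inhibitor gene Sfrp2 (-2.76 ± 0.51), Tdgf1 (-1.78 ± 0.31), Sox11 (-2.33 ± 0.34), Grb10 (-2.68 ± 0.39), Dusp6 (-2.27 ± 0.34) and Lefty2 (-2.41 ± 0.34). Dusp6 fell in the RlimKO-labelled line, a call lost in most other settings, and rose in the WT female line. It had 47.3 and 38.4 CPM in differentiated RlimKO-labelled libraries and 65.9 and 69.5 CPM in differentiated WT female ones. This gap is smaller than the difference of -2.27, and Dusp6 was higher in undifferentiated RlimKO-labelled than in undifferentiated WT female libraries.

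Against the male line, the higher ones were Xist (6.34 ± 0.30), H19 (6.34 ± 0.65), Plagl1 (5.42 ± 0.99), Tgfbr3 (6.23 ± 1.33), Tmem98 (8.04 ± 1.45), the X-linked gene Fndc3c1 (4.34 ± 0.83), Man2a1 (2.59 ± 0.24), Tagln (2.25 ± 0.56) and the replication gene Mcm6 (1.21 ± 0.19). H19 had 10456 and 8387 CPM in differentiated RlimKO-labelled and 251 and 314 CPM in differentiated male libraries, and Plagl1 2416 and 2391 CPM against 138 and 40.1 CPM. The lower imprinted genes were Zim1 (-7.87 ± 0.89), Grb10 (-6.39 ± 0.35) and Igf2r (-5.34 ± 0.24). The X-linked genes Pnma5 (-4.81 ± 0.65), Elk1 (-1.87 ± 0.40), Rps6ka3 (-1.46 ± 0.37), Tfe3 (-1.25 ± 0.29) and Eif2s3x (-1.01 ± 0.23) were lower too. Among muscle genes Smyd1 (-4.75 ± 0.89), Ttn (-2.69 ± 0.38) and Ccdc141 (-2.65 ± 0.54) were lower. The rest were Apoe (-2.56 ± 0.42), Pmaip1 (-2.26 ± 0.45), Etv4 (-1.97 ± 0.49), Spry4 (-1.80 ± 0.30), Hspb1 (-1.27 ± 0.25) and Lamp1 (-1.24 ± 0.21).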

How the results depend on the processing

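Most named results of the RlimKO-labelled line kept their direction and their side of the threshold. Named genes were mostly picked for a small p or a large change, so their stability does not stand for that of all calls. A smaller share of all calls was kept throughout the models without a single library, as given above. Between 4827 and 6896 genes were called under other scaling, filters, sample sets or DESeq2 (5279), with no called gene reversing. Of 234 named genes that were called, 197 stayed called in every setting that tested them, and some were not tested in every setting. Without single libraries 4368 to 7320 genes were called, with 2524 to 3931 rises and 1827 to 3559 falls. The median of all genes was 0.096 with Rn45s and Lars2 kept, against -0.012, so small falls near that size depend on the scaling. The balance of rises and falls depends on the settings too. Rises were 53.9% of calls with RLE scaling, 54.2% by DESeq2, 56.3% with no filter and 51.2% with a stricter filter. With the replicate block they were 49.6%, fewer than the falls, as in the main model. The X-linked shift was -0.123 with no filter, -0.601 with a stricter filter, -0.587 from the 8 female libraries, -0.535 from the 4 libraries of the line, -0.558 without the pair of libraries at either end of the Rn45s share, and -0.483 by means. It was -0.60 to -0.494 without single libraries, and the X-linked share changed by -1.63 to -1.39 percentage points.

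Counts of differences between lines depended most on the settings. Against the WT female line, 200 were called with no filter (60 higher, 140 lower), 522 from the 8 female libraries (220 higher, 302 lower), 56 by DESeq2 (21 higher, 35 lower) and 370 without that pair (131 higher, 239 lower), and 2 to 456 (1 to 188 higher, 1 to 278 lower) without single libraries. Against the male line, 753 were called with no filter (435 higher, 318 lower), 194 higher with Rn45s and Lars2 kept, and 1159 without that pair (582 higher, 577 lower), and 46 to 2044 (27 to 1158 higher, 19 to 886 lower) without single libraries. The cause was not tested.

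With the replicate number as a block, 6153 genes were called, 29 against the WT female line and 302 against the male line. The correlation of same-numbered deviations was 0.049 between differentiated and undifferentiated RlimKO-labelled libraries (-0.104 to 0.197 over 15 pairs of groups). With 2 libraries per group, this cannot tell whether same-numbered libraries shared a culture, and the labels do not say. Depth limits genes below a few CPM: 3 counts are the floor used for groups at 0.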
